A study of Mus musculus with 8 samples.

Results

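The T-cell receptor beta gene segments were taken as every symbol in the count tables that starts with Trbv, Trbd, Trbj or Trbc. There were 53 such symbols of 48321 in all, made up of 35 variable (V), 2 diversity (D), 14 joining (J) and 2 constant (C) segments. Of these, 48 had a count in at least 1 library and 40 passed the filter on low counts. Expression was measured by sequencing RNA from splenic CD8+ T cells of C57BL/6 mice in 8 libraries, 2 in each of 4 groups: WT at day 0, KO at day 0, WT at day 5 and KO at day 5. The series gives the mice as Satb1 F/F; E8I-cre, that is, with *Satb1* alleles flanked by recombination sites and a recombinase driven by an enhancer of the *Cd8* genes that is used in mature CD8 cells. The title of the series calls the cells stimulated and its design calls them cultured, so day 5 is read as 5 days of culture. The stimulus, the age of the mice, the alleles that the WT mice carried and whether replicates came from separate animals are not given in the sources used here. The p-values below therefore measure only the spread between these libraries, which may be technical.

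Each T cell builds its beta chain by joining a V, a D and a J segment in the thymus, and the joined exon is then spliced to a C gene. The V segment encodes most of the antigen-binding domain, the junction of V, D and J encodes the loop that contacts the peptide, and the C gene encodes the part anchored in the membrane. Because mature T cells keep the joined gene, the mix of V segments in a population of cells describes its repertoire. The segments lie in order on mouse chromosome 6, with *Trbv1* farthest from the D segments. The downstream part holds a pair of clusters, *Trbd1* with the *Trbj1* segments and *Trbc1*, then *Trbd2* with the *Trbj2* segments and *Trbc2*. *Trbv31* lies beyond *Trbc2* in the opposite orientation.

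On GRCm38 (mm10) the locus ran from *Trbv1* at chr6:40891229-40891885 to *Trbv31* at chr6:41557691-41558452 on the minus strand, and the other segments were on the plus strand. *Trbd1* was at chr6:41533201-41533212, *Trbc1* at chr6:41538218-41539881, *Trbd2* at chr6:41542163-41542176 and *Trbc2* at chr6:41546730-41548352. Symbols were matched to GENCODE M21, and all 53 had an entry. The D segments are shown first because their shares of D counts differed between the days. They are written 5′ to 3′ on the plus strand of GRCm38, and they differ in length by 2 bases (12 and 14).
Trbd1: gggacagggggc
Trbd2: gggactgggggggc

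The J segments that the results turn on are shown next, with capitals marking the motif TTNG, 5 bases of any kind and GG. In most J segments this motif covers the phenylalanine-glycine core. In *Trbj1-6* the capitals start with TTT GCG, the codons of phenylalanine and alanine, so the motif there does not hold that core. The motif was searched on both strands of the 14 annotated J sequences (46 to 53 bases), and overlapping matches are shown once. It was present in 12 of 14, always on the coding strand, and was absent from *Trbj1-7* and *Trbj2-6*.
Trbj1-1: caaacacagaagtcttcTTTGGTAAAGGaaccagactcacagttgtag
Trbj1-6: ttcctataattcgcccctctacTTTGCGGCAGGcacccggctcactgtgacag
Trbj1-7: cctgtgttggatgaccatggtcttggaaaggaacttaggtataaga
Trbj2-1: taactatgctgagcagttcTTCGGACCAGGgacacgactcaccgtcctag
Trbj2-6: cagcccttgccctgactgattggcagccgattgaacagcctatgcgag

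For the V segments whose share moved most with culture, the last 30 bases before the joining site are shown. Capitals mark the motif TGTGCNAG, which starts with the codon of the cysteine at which the joined loop begins. The motif, searched on both strands, was present in this window in 23 of 35 V segments. The first 4 segments are those whose mean share was highest above day 0 at day 5, and the next 3 are those whose mean share was farthest below it, with *Trbv13-1* added as the third member of the *Trbv13* family.
Trbv1: cagaaccttgtactgcacctgcagtgcaga
Trbv19: tggccgtttttctcTGTGCCAGcagtatag
Trbv3: gtgtacttcTGTGCCAGcagcttagccaca
Trbv29: atctgtgtacttcTGTGCTAGcagtttatc
Trbv16: agcggtgtatcttTGTGCAAGcagcttaga
Trbv13-3: cagctgtatatttcTGTGCCAGcagtgatg
Trbv13-2: catcagtgtacttcTGTGCCAGcggtgatg
Trbv13-1: catctttgtacttcTGTGCCAGcagtgatg

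Gene count totals ran from 4170126 to 11117971 per library, and the V segments together held 3262 to 15278 counts. Reads with more than 1 alignment were not counted and made up 31.8% to 34.5% of records at day 0 and 35.7% to 37.4% at day 5. *Satb1* stood at 94.4 ± 4.4 CPM in WT (mean ± SD, n = 2, counts relative to the TMM-scaled library total) and 134.0 ± 13.6 in KO at day 0, and at 105.8 ± 13.7 and 59.2 ± 4.1 at day 5. The exons between the recombination sites are not given in the sources used here, so a count over the whole gene does not show how far deletion went. At day 0 it was above WT in the libraries labelled KO, which did not pass the edgeR test used below (log2 fold change 0.51 ± 0.15 SE, FDR 0.125). At day 5 the same test called it lower (−0.84 ± 0.15, FDR 0.0162). Its change from day 0 to day 5 also differed between genotypes in that test (−1.34 ± 0.21, FDR 0.0269). Of the cell type markers, the 5 CD8 T-cell genes summed to 9486 to 10644 CPM per library at day 0 and 6138 to 6846 at day 5, and *Cd4* averaged at most 0.756 CPM in a group. Among the B-cell markers, *Ms4a1*, *Pax5* and *Igkc* were at or near 0, while *Ighm* averaged 1391 to 2081 and *Cd79b* 67.4 to 152 CPM per group.

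At day 0 the V repertoire was spread over many segments. Of the 35 V segments, 17 held at least 1% of all Trbv counts as the mean of the 8 libraries, and together they made up 96.5% to 98.0% of the Trbv counts of a library. *Trbv12-2* had the largest mean share, with a range of 10.1% to 12.02% over the 8 libraries, and it kept the largest share when counts were divided by exon length (10.9%). At day 0 it was followed by *Trbv16* (9.37% ± 0.73, SD, n = 4), *Trbv13-2* (8.33% ± 0.34), *Trbv17* (7.91% ± 0.41), *Trbv12-1* (7.86% ± 0.80), *Trbv13-3* (7.56% ± 0.42), *Trbv3* (7.40% ± 0.48) and *Trbv13-1* (6.77% ± 0.34). Neighbours in that order from *Trbv17* to *Trbv3* differed by less than their spread. *Trbv19*, *Trbv15* and *Trbv29* lay between 4.34% and 5.64% at day 0, and *Trbv1*, *Trbv2*, *Trbv20*, *Trbv14*, *Trbv31* and *Trbv26* between 1.47% and 3.60%.

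**Figure D1:**
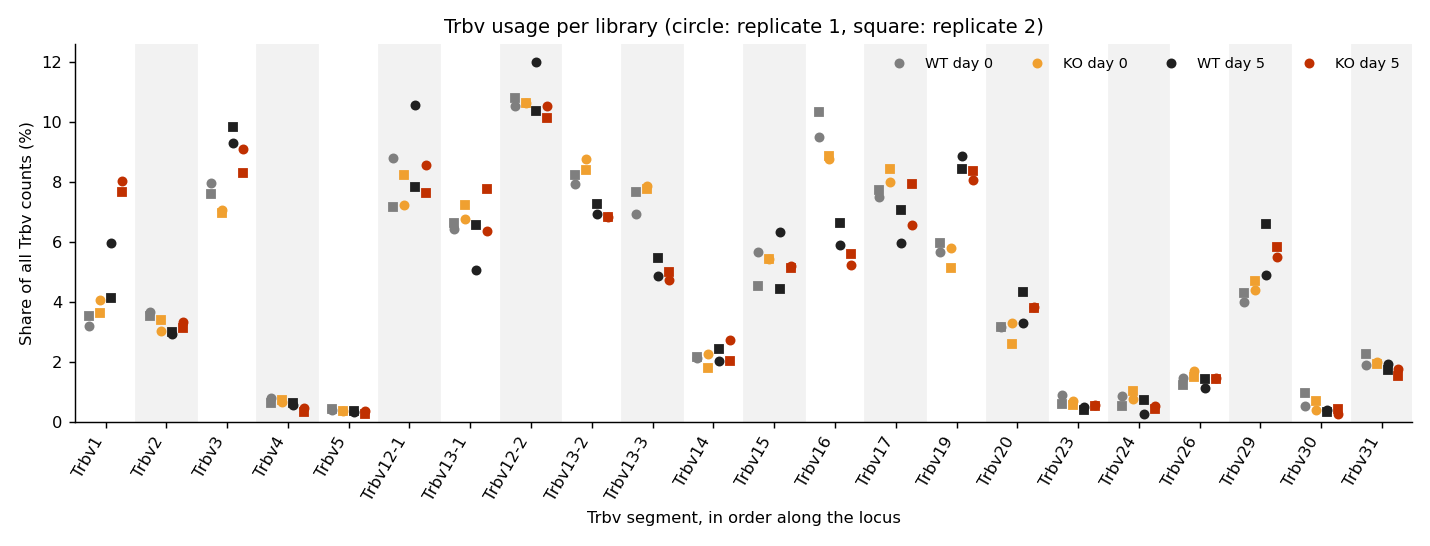
Share of all Trbv counts (y axis, %) of each V segment with a mean share of at least 0.1%, in order along the locus (x axis), with 1 point per library and colours for the 4 groups. *Trbv1* and *Trbv19* lay higher and *Trbv16* and *Trbv13-3* lower in all 4 libraries of day 5 than in all 4 of day 0, while *Trbv12-2* was the largest segment at both days by its mean.

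Sequence relatives within the locus could be told apart by most reads. *Trbv13-2* and *Trbv13-3* were identical at 90.6% of 340 aligned bases, and *Trbv12-1* and *Trbv12-2* at 88.3% of 385. Even so, at least 98.8% of the 50-base windows of each of these V segments, the length of the reads, occurred in no other annotated transcript. *Trbc1* and *Trbc2* were identical at 87.0% of 676 aligned bases, and 58.9% and 56.0% of their windows were unique, so both constant genes were counted from a part of their length. *Trbv4* and *Trbv5* shared exon bases with the gene *5830405F06Rik* and had 27.9% and 22.6% unique windows, which makes their counts uncertain.

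The question of the day 5 against day 0 comparison was how far beta chain RNA changed over culture. The summed level of every class was lower at day 5 in both genotypes. The V segments together stood at 1446 and 1330 CPM in the WT libraries of day 0, 1306 and 1327 in those labelled KO at day 0, 802 and 783 in WT at day 5, and 868 and 789 in those labelled KO at day 5. All 4 libraries of day 5 were below all 4 of day 0, and the group means were 1.75-fold lower in WT and 1.59-fold lower in KO-labelled libraries. Summed C gene RNA went from 2511 ± 150 CPM (SD, n = 2) to 1552 ± 91 in WT and from 2338 ± 132 to 1518 ± 87 in KO-labelled libraries, which is 1.62-fold and 1.54-fold lower. Summed J counts were at 184 to 193 CPM in the 4 libraries of day 0 and at 91.5 to 128 in those of day 5. The CD8 T-cell genes given above moved the same way in part. *Cd8b1*, a chain of the CD8 coreceptor, fell by 1.64 on the log2 scale in WT and by 1.36 in KO-labelled libraries. *Cd8a*, the other chain, fell by 0.87 in WT and had a log2 fold change of −0.21 ± 0.11 in KO-labelled libraries that did not pass (FDR 0.112). Their part in the lower segment levels was not tested. V counts per 100 C counts ranged from 49.7 to 58.2 over the 8 libraries. These are bulk libraries, in which fewer cells that use a segment and less of its RNA per cell cannot be told apart.

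**Figure D2:**
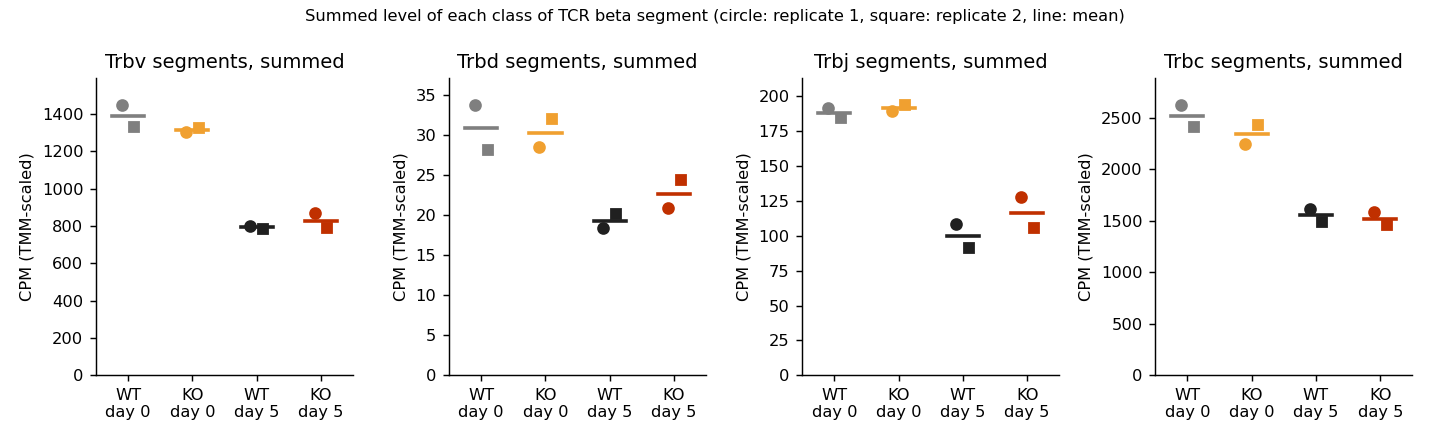
Summed level of the V, D, J and C segments in each library (y axis, CPM on the TMM-scaled library size, from 0), with groups on the x axis, circles and squares for replicates 1 and 2 and lines for group means. In each of the 4 panels the libraries of day 5 lie below those of day 0.

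Segment by segment, 33 of the 40 tested were lower at day 5 in WT and 0 were higher, where 23.6% of all 12597 tested genes were lower and 24.7% higher (48.3% in either direction). Calls and FDRs are those of the edgeR quasi-likelihood test, Benjamini-Hochberg adjusted over all tested genes, with a threshold of 0.05. In KO-labelled libraries 23 of 40 were lower and 0 higher, beside 24% of all genes lower and 26.2% higher (50.2% in either direction). The median log2 fold change of the 40 segments was −0.95 in WT and −0.72 in KO-labelled libraries, and that of all genes was −0.04 and −0.05. All 40 had at least 1 CPM in every library, so none was tested only through the day at which it was high. By class, 19 of 22 V, 1 of 2 D, 11 of 14 J and both C segments were lower in WT, and 14 of 22 V, 1 of 2 D, 6 of 14 J and both C segments in KO-labelled libraries. Without replicate 1 of WT at day 0 the WT count was 17, and without replicate 2 of KO at day 5 the KO-labelled count was 8. The difference between the genotypes in these changes was itself tested as a genotype by day interaction, in which edgeR called 0 of 40 segments, beside 0.159% of all genes (0.0794% higher and 0.0794% lower). None of the 40 had an unadjusted interaction p under 0.05, and DESeq2 called 0 of the 48 segments with a count, also with 0 at an unadjusted p under 0.05.

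**Figure D3:**
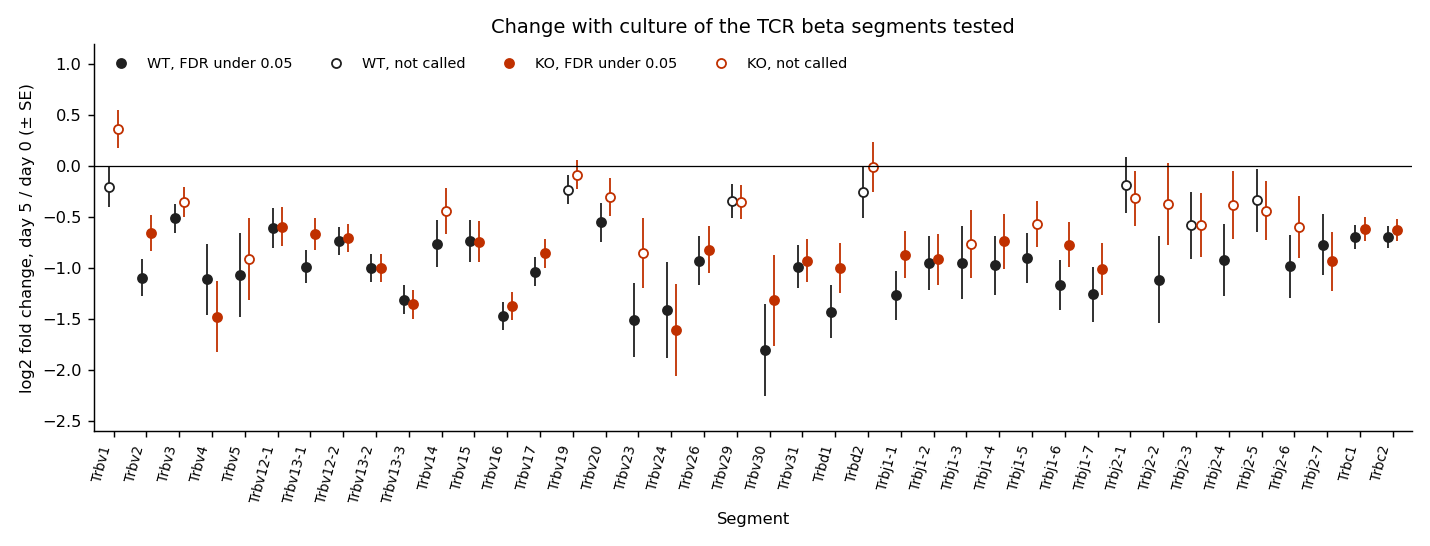
Log2 fold change of day 5 against day 0 (y axis, ± SE of the edgeR fit) for each of the 40 tested segments (x axis, V, D, J and C in order along the locus), in WT (black) and in KO-labelled libraries (red). Filled points have an FDR under 0.05, and *Trbv1* in KO-labelled libraries is the only point above 0.

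Among the V segments, *Trbv16* and *Trbv13-3* combined a high level with a large fall. *Trbv16* had 137 and 138 CPM in WT and 114 and 118 in KO-labelled libraries at day 0, and 47.3 and 51.9 in WT and 45.5 and 44.1 in KO-labelled libraries at day 5. The groups of the 2 days did not overlap, and the log2 fold change was −1.47 ± 0.14 (SE) in WT and −1.37 ± 0.14 in KO-labelled libraries, with FDRs of 2.37e-06 and 3.82e-06. *Trbv13-3* had 100 and 102 CPM in WT and 103 and 103 in KO-labelled libraries at day 0, against 39.0 and 42.7 in WT and 41.1 and 39.4 in KO-labelled libraries at day 5. Its 4 libraries within a day lay close together, and its log2 fold changes were −1.31 ± 0.14 and −1.36 ± 0.14. Its relative *Trbv13-2* went from 112 ± 3.7 and 113 ± 2.2 CPM to 56.2 ± 1.0 and 56.5 ± 3.8, with log2 fold changes of −0.997 and −0.999. The third of the family, *Trbv13-1*, went from 90.7 ± 3.6 to 46.0 ± 7.6 CPM in WT and from 92.3 ± 5.5 to 58.2 ± 4.3 in KO-labelled libraries, with log2 fold changes of −0.98 and −0.66. *Trbv17* fell by 1.03 and 0.85 on the log2 scale, *Trbv31*, which joins by inversion, fell by 0.99 and 0.92, and *Trbv12-2* fell by 0.73 and 0.71. In KO-labelled libraries the call of *Trbv13-1* was lost without replicate 1 of KO at day 5 (FDR 0.0528) and that of *Trbv31* without replicate 2 (FDR 0.0565).

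Fitted changes of low V segments rest on few reads. *Trbv30* went from 9.96 ± 3.75 to 2.78 ± 0.54 CPM in WT and from 7.18 ± 3.03 to 2.80 ± 0.85 in KO-labelled libraries, with log2 fold changes of −1.80 ± 0.45 and −1.31 ± 0.45. *Trbv24*, *Trbv4* and *Trbv23* fell by 1.41, 1.11 and 1.51 on the log2 scale in WT. In KO-labelled libraries *Trbv24* and *Trbv4* also fell, with log2 fold changes of −1.61 and −1.48, and *Trbv23* had one of −0.85 ± 0.34 that did not pass (FDR 0.055). Over 16 alternatives other than a minimum fold, the WT calls of *Trbv30*, *Trbv24*, *Trbv4* and *Trbv23* were lost under 1, 3, 5 and 1, that of *Trbv30* without replicate 2 of WT at day 0 and each of the others without replicate 1 of that group among them. In KO-labelled libraries those of *Trbv30*, *Trbv24* and *Trbv4* were lost under 4, 1 and 1, each of them without replicate 2 of KO at day 5. *Trbv23* was called lower in KO-labelled libraries with scaling by library totals (FDR 0.023), with replicate numbers as a block (FDR 0.0464) and without replicate 2 of WT at day 0 (FDR 0.0473). The lowest counts of *Trbv24*, *Trbv4*, *Trbv23* and *Trbv30* in a library were 11, 13, 13 and 10, and the reads of *Trbv4* are shared in part with another gene.

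For *Trbv19*, *Trbv1* and *Trbv29* the main comparison called no change in either genotype. *Trbv19* had 81.8 and 79.3 CPM in WT and 75.6 and 68.0 in KO-labelled libraries at day 0, against 71.2 and 66.0 in WT and 70.0 and 66.0 in KO-labelled libraries at day 5. Its log2 fold changes of −0.23 ± 0.14 and −0.08 ± 0.14 did not pass the test, with FDRs of 0.203 and 0.654. *Trbv1*, the V segment farthest from the D segments, had 46.3 and 46.9 CPM in WT and 52.8 and 48.1 in KO-labelled libraries at day 0, and 48.0 and 32.4 in WT and 69.8 and 60.6 in KO-labelled libraries at day 5. The day 5 values of WT straddled those of day 0, and both KO-labelled libraries of day 5 were above both of day 0. The log2 fold change was −0.20 ± 0.19 in WT and 0.37 ± 0.19 in KO-labelled libraries (FDR 0.414 and 0.121), and the interaction was 0.57 ± 0.27 (FDR 0.416). Without replicate 1 of WT at day 5, *Trbv1* was called higher at day 5 in KO-labelled libraries (log2 fold change 0.39, FDR 0.0476). *Trbv29* did not pass in either genotype (−0.34 ± 0.17 and −0.35 ± 0.17), but without replicate 2 of WT at day 5 it was called lower in WT (−0.53, FDR 0.0372). With scaling by library totals, *Trbv19* was called lower in WT (−0.37, FDR 0.0444) and *Trbv29* in KO-labelled libraries (−0.53, FDR 0.0257). *Trbv3* and *Trbv20* fell in WT by 0.51 and 0.55 on the log2 scale, and in KO-labelled libraries they did not pass (−0.35 ± 0.15 and −0.30 ± 0.19). The WT call of *Trbv3* was lost without replicate 1 of WT at day 0 (FDR 0.134) or at day 5 (FDR 0.0595), and that of *Trbv20* under 9 of 16 alternatives, with FDRs up to 0.248. With library totals *Trbv3* was called lower in KO-labelled libraries as well (−0.53, FDR 0.00895).

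Because the V total fell as a whole, segments were also compared as shares of all Trbv counts. Shares of day 5 and day 0 were compared by an exact two-sided permutation test of day labels within genotype, whose 36 arrangements allow no p below 0.0556, so no share can pass 0.05. *Trbv1* held 3.21% to 4.05% in the 4 libraries of day 0, and 5.98% and 4.14% in WT and 8.04% and 7.68% in KO-labelled libraries at day 5, a mean difference of 2.86 percentage points. *Trbv19* had 5.66% and 5.96% in WT and 5.79% and 5.12% in KO-labelled libraries at day 0, and 8.87%, 8.43%, 8.06% and 8.37% in the same order at day 5, a difference of 2.80 points. For both segments the days did not overlap, and the exact permutation p was the smallest possible, 0.0556. *Trbv3* (7.40% to 9.14%), *Trbv29* (4.34% to 5.71%) and *Trbv20* (3.05% to 3.81%) had higher mean shares at day 5, also without overlap and at the smallest p. *Trbv16* had 9.49% and 10.3% in WT and 8.76% and 8.87% in KO-labelled libraries at day 0, and 5.89%, 6.62%, 5.24% and 5.598% at day 5, a difference of −3.53 points. *Trbv13-3* (7.56% to 5.01%), *Trbv13-2* (8.33% to 6.96%) and *Trbv17* (7.91% to 6.89%) also had lower mean shares at the smallest p, and of these 3 the days overlapped for *Trbv17*. In all, 9 of the 17 segments reached the smallest p, while the CPM of 59.2% of all tested genes did so in the same test, so their number is not read as particular to V segments. The days did not overlap for 8 of the 17, beside 53% of all tested genes by CPM.

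**Figure D4:**
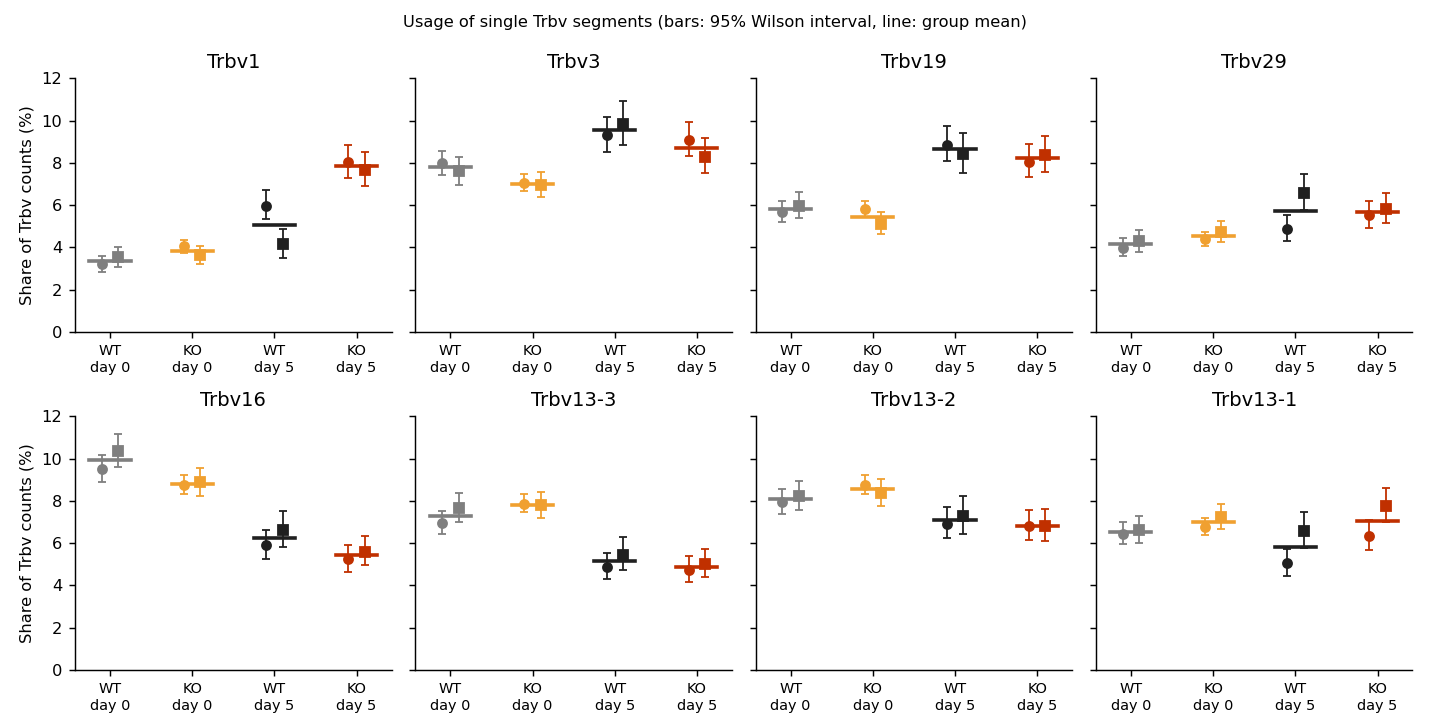
Share of all Trbv counts (y axis, %, from 0) of 8 V segments in each library, with 95% Wilson intervals for counting error and lines for group means (x axis, genotype and day). The 4 segments of the upper row were higher in every library of day 5 than in any of day 0, *Trbv16*, *Trbv13-3* and *Trbv13-2* were lower, and *Trbv13-1* overlapped between days.

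The other 8 segments with at least 1% of V counts each differed between days by less than the widest gap between their own replicates. Among them, *Trbv12-2* averaged 10.7% at day 0 and 10.8% at day 5, *Trbv15* averaged 5.26% at both days, and *Trbv13-1* averaged 6.77% and 6.44%. *Trbv12-1* averaged 7.86% and 8.66%, but its WT libraries of day 5 had 10.6% and 7.85%, the widest gap between replicates of any V segment (2.73 points). Across the 17 segments, the shift in WT and the shift in KO-labelled libraries had Pearson's r of 0.90 and Spearman's rho of 0.89, a description over segments that share libraries and are not independent replicates. The shift had Pearson's r of −0.20 with distance from *Trbd1* (rho −0.10), −0.15 with GC content (rho −0.19) and 0.39 with exon length (rho 0.32) over the same 17 segments, given without a test. The segments with a higher mean share at day 5 at the smallest p, *Trbv1*, *Trbv3*, *Trbv19*, *Trbv20* and *Trbv29*, started between −642 kb and −262 kb relative to *Trbd1*. Those with a lower mean share, *Trbv13-2*, *Trbv13-3*, *Trbv16* and *Trbv17*, lay between −412 kb and −370 kb, where *Trbv14* and *Trbv15* also lie without such a shift.

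The breadth of the V repertoire lay in a narrow range. The effective number of V segments, the exponential of the Shannon entropy of the shares, which gives how many equally used segments would be as diverse, ranged from 16.7 to 16.9 at day 0 and from 16.0 to 16.6 at day 5. The 5 segments with the largest mean share over all libraries were *Trbv12-2*, *Trbv3*, *Trbv12-1*, *Trbv13-2* and *Trbv16*. Together they held 42.4% to 44.8% at day 0 and 38.5% to 44.7% at day 5. This set was the same for every library and includes *Trbv16* and *Trbv13-2*, whose shares were lower at day 5. Its sum is therefore not the share of the largest segments of each library. As a distance between libraries, the percentage points of Trbv counts that would have to move from one segment to another were added up. Libraries of the same group were 3.37 to 9.03 points apart, libraries of the same day and other genotype 3.92 to 8.73, and libraries of the same genotype and other day 9.79 to 14.3. The distance of 9.03 was between the WT libraries of day 5, and the other 3 pairs of replicates were 3.37 to 4.43 points apart.

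*Trbd1* fell with culture and *Trbd2* did not pass the test. *Trbd1* had 14.97 and 13.97 CPM in WT and 14.7 and 14.99 in KO-labelled libraries at day 0, and 5.45, 5.28, 7.70 and 7.17 in the same order at day 5. Every day 5 value was below every day 0 value, with log2 fold changes of −1.43 ± 0.26 in WT and −0.99 ± 0.24 in KO-labelled libraries (FDR 0.000703 and 0.00463). The call in KO-labelled libraries was lost without replicate 2 of KO at day 5 (log2 −0.92, FDR 0.0523). *Trbd2* had 16.5 ± 3.2 and 15.4 ± 2.3 CPM at day 0 and 13.9 ± 1.3 and 15.2 ± 2.8 at day 5, and did not pass (log2 fold change −0.25 ± 0.25 and −0.01 ± 0.24). *Trbd1* therefore made up 44.4% to 51.7% of D counts at day 0 and 26.2% to 36.8% at day 5, a difference of −17.6 points at the smallest exact permutation p of 0.0556. These shares rest on 84 to 333 D counts per library. A read of 50 bases is longer than either D segment, so each read counted there also covered neighbouring bases, and the counts do not tell joined from unjoined DNA.

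Among J segments the upstream cluster also had a lower mean share at day 5. The *Trbj1* cluster held 65.8% and 61.1% of J counts in WT and 66.2% and 66.8% in KO-labelled libraries at day 0, and 55.2% and 58.8% in WT and 63.9% and 60.8% in KO-labelled libraries at day 5. The mean difference between days was −5.31 points, with overlap between the days, at the smallest exact permutation p of 0.0556. In levels, the 7 *Trbj1* segments had log2 fold changes of −0.90 to −1.27 in WT, where all 7 were called, and of −0.57 to −1.01 in KO-labelled libraries, where *Trbj1-3* (FDR 0.0757) and *Trbj1-5* (FDR 0.0552) did not pass. Over 16 alternatives other than a minimum fold, the WT calls of *Trbj1-1*, *Trbj1-6* and *Trbj1-7* were never lost, those of *Trbj1-2*, *Trbj1-4* and *Trbj1-5* were lost under 2, 3 and 2, and that of *Trbj1-3* under 9, with FDRs up to 0.292 without replicate 1 of WT at day 0. All 5 calls in KO-labelled libraries were lost without replicate 2 of KO at day 5 (FDR 0.0538 to 0.166). With scaling by library totals *Trbj1-3* and *Trbj1-5* were also called lower in KO-labelled libraries (FDR 0.0297 and 0.015), as was *Trbj2-6* (FDR 0.0471), and with replicate numbers as a block so was *Trbj1-3* (FDR 0.0412). Of the 7 *Trbj2* segments, *Trbj2-2*, *Trbj2-4*, *Trbj2-6* and *Trbj2-7* were called in WT, with log2 fold changes of −0.77 to −1.11, and of these *Trbj2-7* was also called in KO-labelled libraries (−0.93 ± 0.29). Of the same 16 alternatives, 13, 13, 3 and 12 ended the WT calls of *Trbj2-2*, *Trbj2-4*, *Trbj2-6* and *Trbj2-7*, and 4 ended that of *Trbj2-7* in KO-labelled libraries. *Trbj2-1* (−0.18 ± 0.27 and −0.32 ± 0.27), *Trbj2-3* (−0.58 ± 0.33 and −0.58 ± 0.32) and *Trbj2-5* (−0.33 ± 0.31 and −0.44 ± 0.29) did not pass in either genotype. *Trbj2-1* moved from 5.11% to 6.13% of J counts at day 0 to 8.74% and 10.8% in WT and 7.18% and 6.45% in KO-labelled libraries at day 5, without overlap. Of the 11 J segments with at least 5% of J counts, 4 reached the smallest p between days, beside the 59.2% of all tested genes given above. They were *Trbj2-1*, and with lower mean shares at day 5 *Trbj1-1*, *Trbj1-6* and *Trbj1-7*. Single J segments had 8 to 284 counts in a library, so their shares carry wide counting intervals. J segments have 46 to 53 bases, so a read of 50 bases counted there can also cover neighbouring bases. As for the D segments, the counts do not tell joined from unjoined DNA. The *Trbj1* cluster held 55.2% to 66.8% of J counts, where *Trbc1* held 36.4% to 38.0% of C counts. The J shares are given as shares of counts and are not read as usage.

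Both C genes fell in both genotypes. *Trbc1* had 984 and 887 CPM in WT and 848 and 896 in KO-labelled libraries at day 0, and 614, 542, 597 and 539 in the same order at day 5. *Trbc2* had 1633 and 1518 CPM in WT and 1396 and 1536 in KO-labelled libraries at day 0, and 1002, 945, 982 and 918 at day 5. Both genes were lower in every library of day 5, with log2 fold changes of −0.69 in WT for each and of −0.62 and −0.63 in KO-labelled libraries. *Trbc1* made up 36.4% to 38.0% of C counts in all 8 libraries, and its mean share differed by 0.030 points between days (exact permutation p = 0.944) and by 0.133 points between genotypes (p = 0.833).

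**Figure D5:**
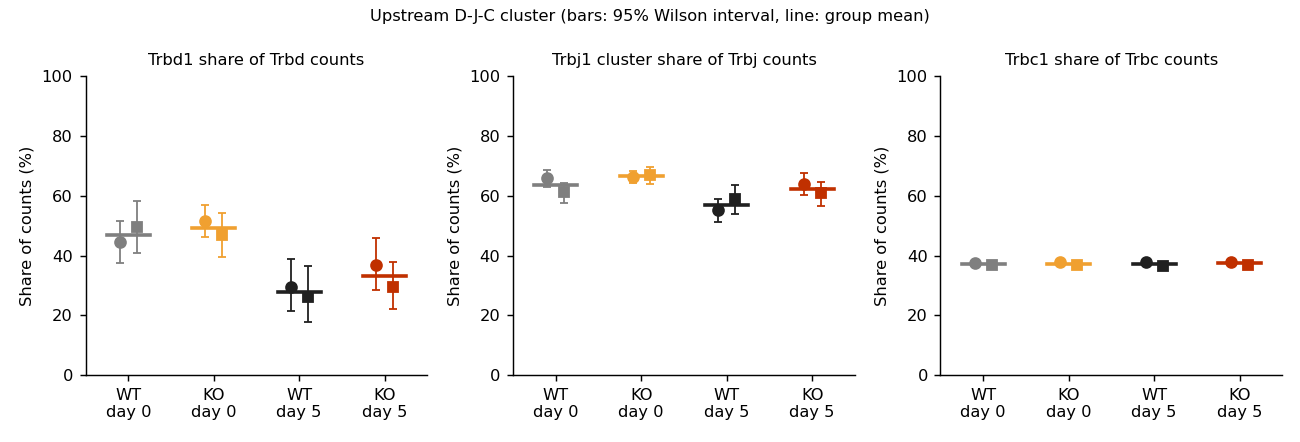
Share of the upstream cluster (y axis, %, 0 to 100) among D, J and C counts in each library, with 95% Wilson intervals for counting error and lines for group means (x axis, genotype and day). The *Trbd1* share lay at 44.4% or more at day 0 and at 36.8% or less at day 5, while the *Trbc1* share stayed between 36.4% and 38.0%.

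The KO against WT comparison asked whether the libraries labelled KO differed in beta chain RNA at either day. At day 0, edgeR called 0 of the 40 segments, where 1.8% of all genes were called. None had an unadjusted p under 0.05, and DESeq2 called 0 with 0 at an unadjusted p under 0.05. The log2 fold changes ran from −0.50 to 0.27, with the lowest in *Trbv30*, and the largest difference among V segments with over 5% of V counts was in *Trbv16* (−0.24 ± 0.13). At day 5, edgeR again called 0 of 40, beside 1.63% of all genes. There, *Trbv1* and *Trbj1-6* had an unadjusted p under 0.05, and DESeq2 called 0 with 1 at an unadjusted p under 0.05. *Trbv1* at day 5 was at 48.0 and 32.4 CPM in WT and at 69.8 and 60.6 in KO-labelled libraries, without overlap. Its log2 fold change was 0.69 ± 0.19 (FDR 0.108), and over the alternatives it ran from 0.45 to 1.02 with FDRs of 0.0367 to 1. The value of 1.02 was obtained without replicate 1 of WT at day 5. *Trbj1-6* was at 7.73 and 6.72 CPM in WT and at 12.5 and 10.6 in KO-labelled libraries (log2 fold change 0.66 ± 0.25, FDR 0.23). *Trbc1* and *Trbc2* differed by −0.10 ± 0.12 and −0.10 ± 0.11 at day 0 and by −0.02 ± 0.12 and −0.04 ± 0.11 at day 5.

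By share of Trbv counts, genotype labels were permuted within day with the same smallest p of 0.0556. It was reached by 4 of the 17 segments, where the CPM of 11.8% of all tested genes reached it. *Trbv1* was 1.64 points higher in the mean of KO-labelled libraries, *Trbv26* was 0.21 points higher, *Trbv16* was 0.97 points lower and *Trbv3* was 0.83 points lower. For none of these did the 4 libraries labelled KO separate from the 4 labelled WT when the days were joined. Within day 5, 2 against 2 libraries allow no exact permutation p below 0.333. Of the 11 J segments with at least 5% of J counts, 4 reached the smallest p between genotypes, again beside 11.8% of all tested genes by CPM. The shares of 3 of them did not overlap. By CPM, which fell with culture, these 3 did overlap. For *Trbj1-6*, KO-labelled libraries of day 5 (12.5 and 10.6 CPM) lay below WT libraries of day 0 (16.4 and 16.2). The 2.65% of all tested genes that did not overlap by CPM is therefore not a like measure. *Trbj1-6* held 8.55% and 8.81% in WT and 10.4% and 10.1% in KO-labelled libraries at day 0, and 7.12% and 7.35% against 9.77% and 10.04% at day 5. All 4 KO-labelled values were above all 4 WT values, as were those of *Trbj1-5* (mean 9.30% against 8.08%), whereas those of *Trbj2-6* were all below (4.84% against 6.23%). *Trbj2-1* averaged 6.01% in KO-labelled and 7.79% in WT libraries, with overlap. The *Trbj1* cluster as a whole was 4.22 points higher in KO-labelled libraries at the smallest exact permutation p, with overlap. Replicate 1 of WT at day 0 held 65.8%, above the 63.9% and 60.8% of KO-labelled libraries at day 5.

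Segments classed as pseudogenes were seen at very different levels. GENCODE classes 13 V segments as pseudogenes, and they held 397 counts over the 8 libraries against 52900 for the 22 V genes. Of these 397 counts, 368 were of *Trbv24*, which RefSeq classes as a V segment and GENCODE as a pseudogene. The other 12 had 29 counts in all, and 5 of them, *Trbv8*, *Trbv9*, *Trbv25*, *Trbv27* and *Trbv28*, had no count in any library. *Trbv8* has no unique 50-base window, so its 0 says nothing about its RNA. *Trbv29* carried the opposite labels, a V gene in GENCODE and a pseudogene in RefSeq, and held 3.98% to 6.59% of V counts. *Trbv21*, a V gene in GENCODE, had 26 counts in all, of which 19 were in replicate 1 of KO at day 0. With these, 13 of the 53 segments were not tested. J segments without the motif marked above were not rare in the same way, since *Trbj1-7* and *Trbj2-6* together held 10.3% to 14.4% of J counts. *Trbj1-7* had 46 bases and 62.6 counts per library in the mean, and *Trbj2-6*, a pseudogene in both annotations, had 48 bases and 49.1 counts.

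Genes of the receptor complex and of the joining reaction were read beside the segments from a list of 14, of which 11 were tested. At day 5, 6 were lower and 1 higher in WT, and 4 were lower and 1 higher in KO-labelled libraries. Of all tested genes 23.6% were lower and 24.7% higher in WT, and 24% and 26.2% in KO-labelled libraries, so the share of the list called in either direction in KO-labelled libraries was near the 50.2% of all genes. *Trac*, the alpha chain constant gene, fell by 0.52 and 0.38 on the log2 scale, less than the beta chain constant genes in both genotypes, though the difference between these genes was not tested. *Cd3e* fell by 0.91 and 0.70 and *Cd247*, the zeta chain, by 0.90 and 0.67, whereas *Cd3d* (0.02 ± 0.10 and 0.03 ± 0.10) and *Cd3g* (−0.14 ± 0.10 and −0.05 ± 0.10) did not pass. The gene that rose in both was *Dntt*, the terminal transferase that adds bases at junctions, from 7.43 ± 3.20 to 21.5 ± 10.3 CPM in WT and from 3.62 ± 1.76 to 16.1 ± 2.2 in KO-labelled libraries (FDR 0.00799 and 0.00135). *Rag1*, *Rag2* and *Ptcra*, whose products act during joining and in thymocytes, averaged at most 0.189 CPM in a group. In the KO against WT comparison, *Lat* fell by 0.54 on the log2 scale at day 0, the one call of the 11, beside 1.8% of all genes, with 2 at an unadjusted p under 0.05. At day 5 edgeR called 0 of the 11, beside 1.63% of all genes, with 1 at an unadjusted p under 0.05.

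The gamma delta T-cell markers moved with day and genotype. Their 6 genes summed to 62.4 to 94.4 CPM in WT and 160 to 162 in KO-labelled libraries at day 0, and to 323 to 351 and 517 to 614 at day 5. Most of the sum at day 5 was in the gamma constant genes, of which *Tcrg-C2* went from 3.09 ± 0.09 to 166 ± 1.1 CPM in WT and from 22.5 ± 3.6 to 328 ± 59 in KO-labelled libraries. On the log2 scale, *Tcrg-C1* rose by 5.68 in WT and 3.95 in KO-labelled libraries, *Tcrg-C4* by 2.87 and 1.15, and *Maf* by 3.07 and 1.91. *Maf* stayed low, at 4.28 ± 1.65 and 4.64 ± 0.43 CPM at day 5. *Trdc*, the delta constant gene that defines these cells, instead fell by 0.90 and 1.64 on the log2 scale. *Sox13* was at 0 in all 4 libraries of day 5, but averaged only 0.338 and 0.573 CPM at day 0. Of the B-cell markers, *Ighm* fell by 0.58 and 0.45 and *Cd79b* by 0.83 and 0.90 on the log2 scale between days. The 3 NK-cell markers summed to 10.7 to 17.3 CPM at day 0 and 37.4 to 53.95 at day 5, nearly all of it *Eomes*, which rose by 2.07 and 1.46, while *Ncr1* and *Klrb1c* averaged under 1 CPM in every group. The 5 myeloid markers summed to 10.9 to 19.2 CPM at day 0 and 34.1 to 71.8 at day 5, where *Cd68* rose by 3.53 and 4.09 and *Csf1r* fell by 1.19 and 1.18, and *Adgre1* was at 0 in all 4 libraries of day 5. The part of these transcripts in the beta chain results was not tested.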

How the data were processed

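For each of 8 libraries the authors deposited 1 table of unnormalized counts by gene symbol, which ends with summary lines of HTSeq. Per the labels, total RNA was extracted with Trizol, libraries were made with an NEBNext Ultra RNA kit and sequenced to 50 bases on a HiSeq2500, and the processing notes of the submitters name HISAT2 2.1.0, HTSeq 0.11.1 and mm10 (GRCm38). The annotation and the strand setting are not given in the sources used here, and the kit does not mark strand. Reads with several alignments were not counted, so near-identical genes were counted from their unique reads. Summary lines were left out of library totals, and reads assigned to genes were 21.2% to 24.5% of records.

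Groups and replicate numbers came from the sample titles. Counts were tested with edgeR 4.0.16 (R 4.3.3), with a quasi-likelihood fit of all 8 libraries with a mean per group, TMM factors and the default filter (minimum count 10), which left 12597 genes with a common biological coefficient of variation of 15.0%. P-values were two-sided and Benjamini-Hochberg adjusted over all 12597 genes, with a threshold of 0.05. CPM used the TMM-scaled library size. Shares were compared by exact two-sided permutation within strata (36 arrangements), and 95% Wilson intervals cover the error of counting alone, because molecules carried no identifiers. Effective numbers and summed levels are descriptions without a test. Sequences, coordinates and exon lengths came from GENCODE M21 (GRCm38), and the fits and share tests were tested on simulated data.

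The segments, gene lists and tests were chosen with earlier results of these data known. Named were all C and D segments, V segments with at least 1% and J segments with at least 5% of their class, segments called in any comparison, V pseudogenes averaging at least 10 counts, and the listed genes. The remaining segments are named as members of small counts, chosen after their values were seen. Alternatives were DESeq2 1.42.0, DESeq2 size factors or library totals in edgeR, no filter, a floor of 5 CPM in 2 libraries, fits without the groups outside a comparison, a replicate block, a minimum change of 1.5-fold, leaving out each library, and, for shares, other denominators, exon length and thinning to 3262 V counts. Thinning to 4170126 gene counts and division by unique 50-base windows were added after seeing the data.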

Additional observations from a re-analysis of the deposited data

How the results depend on the processing

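No change with culture reversed under any alternative. None of 117 recomputed share differences reversed, over the 9 V segments at the smallest permutation p between days. These 9 were chosen by their shares in the same libraries. The days did not overlap for 8 of them, so leaving out a library could not reverse their sign. Of the 33 segments lower in WT, 11 were called under every alternative (14 without the fold minimum), and of the 23 in KO-labelled libraries, 4 (7 without it), which were *Trbc1*, *Trbc2*, *Trbv12-2*, *Trbv13-2*, *Trbv13-3*, *Trbv16* and *Trbv17*. With a minimum change of 1.5-fold, 13 segments in WT and 6 in KO-labelled libraries were called. Leaving out 1 library gave 17 to 28 in WT, lowest without replicate 1 of WT at day 0, and 8 to 24 in KO-labelled libraries, lowest without replicate 2 of KO at day 5. DESeq2 called 22 and 18. Scaling by library totals gave 34 and 31. For KO against WT at day 5, 1 segment, *Trbv1*, was called without the filter on low counts, and leave-one-out gave 0 to 1, with *Trbv1* called without replicate 1 of WT at day 5. At day 0 and for the interaction, leave-one-out gave 0 throughout. The cause was not tested.

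Scaling by library totals shifted the median over all genes of the log2 change between days by −0.13 in WT and −0.18 in KO-labelled libraries. The log2 ratio of day 5 to day 0 was then −0.89 for summed V, −0.98 for summed J and −0.82 for summed C levels, against −0.74, −0.82 and −0.66. The leave-one-out ranges were −0.77 to −0.70, −0.89 to −0.75 and −0.69 to −0.63. The effective number of V segments differed between days by −0.38, with a range of −0.54 to −0.21, and the *Trbj1* share by −5.31 points, with a range of −6.49 to −4.13. The *Trbc1* share of 37.3% (37.2% to 37.4%) was 35.5% per exon length and 34.6% per unique 50-base window.

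The labels do not say that libraries of the same number share a source, and with 2 pairs the numbers are not taken as pairing. Replicate differences across genes correlated at 0.118 between days in WT and 0.228 in KO-labelled libraries, and at 0.004 and −0.017 between genotypes. With the replicate number as a block, 30 segments in WT and 25 in KO-labelled libraries were called, and 0 in each of the other comparisons.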
